A study of Mus musculus with 11 samples.

Results

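The clustered protocadherin genes are neighbouring genes of mouse chromosome 18 that fall into the alpha, beta and gamma clusters. The members described here were the protein-coding GENCODE genes of chromosome 18 whose symbols start with Pcdha, Pcdhb or Pcdhg. They comprised 57 of 21938 protein-coding genes, with 14 in the alpha, 22 in the beta and 21 in the gamma cluster. The window examined ran from 200 kb before the first to 200 kb after the last of these genes and held 87 of the 94963 accessible regions of the genome. Between the first and last cluster gene lay 49 regions.

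The assay was ATAC-seq, which uses a transposase to cut and tag open chromatin for sequencing. The cells were MPC2, a single conditionally immortalised mouse mesenchymal stem cell line. MPC2 cells were kept as undifferentiated MSCs or were differentiated to osteocytes for 3 weeks, and then received FG-4592 (50 µM, an inhibitor of the HIF prolyl hydroxylases that stabilises hypoxia-inducible factors) or vehicle (DMSO, 0 µM) for 48 hours. The 11 samples comprised 3 MSC samples with vehicle, 3 MSC samples with FG-4592, 2 osteocyte samples with vehicle and 3 osteocyte samples with FG-4592. The list of regions pooled all 4 groups and gave 1 value per region. From its values it was taken to be a mean over the samples in log2 CPM, the log2 of cut counts normalised for library size. No value per sample was in the list, so the values below have no replicate error, the depth per sample is unknown, and no difference between MSCs and osteocytes or between FG-4592 and vehicle was measured. All counts and medians are descriptions of 1 pooled list without a test.

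Clustered protocadherins are adhesion proteins of the cadherin superfamily, best known from neurons, where each cell uses its own small set of them as a surface identity. In each cluster a row of large variable exons, each with its own promoter, encodes the extracellular part of the protein. In the alpha and gamma clusters each variable exon is spliced to constant exons shared by the cluster, whereas beta genes have no constant exons. The last variable exons of the alpha and gamma clusters are the C-type genes (Pcdhac1, Pcdhac2, Pcdhgc3, Pcdhgc4 and Pcdhgc5), which neurons use more uniformly than the rest. CTCF and cohesin are known to loop distal enhancers to the chosen promoters.

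Few of the promoters had an accessible region in the list. A region lay within 1000 bp of an annotated transcript start at 16 of the 57 genes (28.1%), whereas 64.1% of all protein-coding genes and 76.3% of the other protein-coding genes of chromosome 18 had one. The count depended on the definition. It was 28 of 57 within 2000 bp (67.0% of all protein-coding genes), and 7 of 57 with regions at least 500 bp wide (56.9%). The reach of 2000 bp also takes in regions inside variable exons, such as those of Pcdhb8 and Pcdhb13, which are described below as a second set. By cluster, 3 of 14 alpha, 7 of 22 beta and 6 of 21 gamma genes had a region. The C-type genes stood out by count, with a region at 4 of 5, the exception being Pcdhgc4. Among the other cluster genes 12 of 52 (23.1%) had one. The start was rarely CpG-rich, defined as a GC content of at least 55% and a CpG observed over expected ratio of at least 0.6 within 500 bp of the start. Of the 57 genes only Pcdhac2 and Pcdhgc3 met this definition, against 38.3% of all protein-coding genes, and both had a region. Of all protein-coding genes with a CpG-rich start 91.7% had a region, and of those without 46.9% did, which is still above the share in the clusters.

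**Figure D1:**
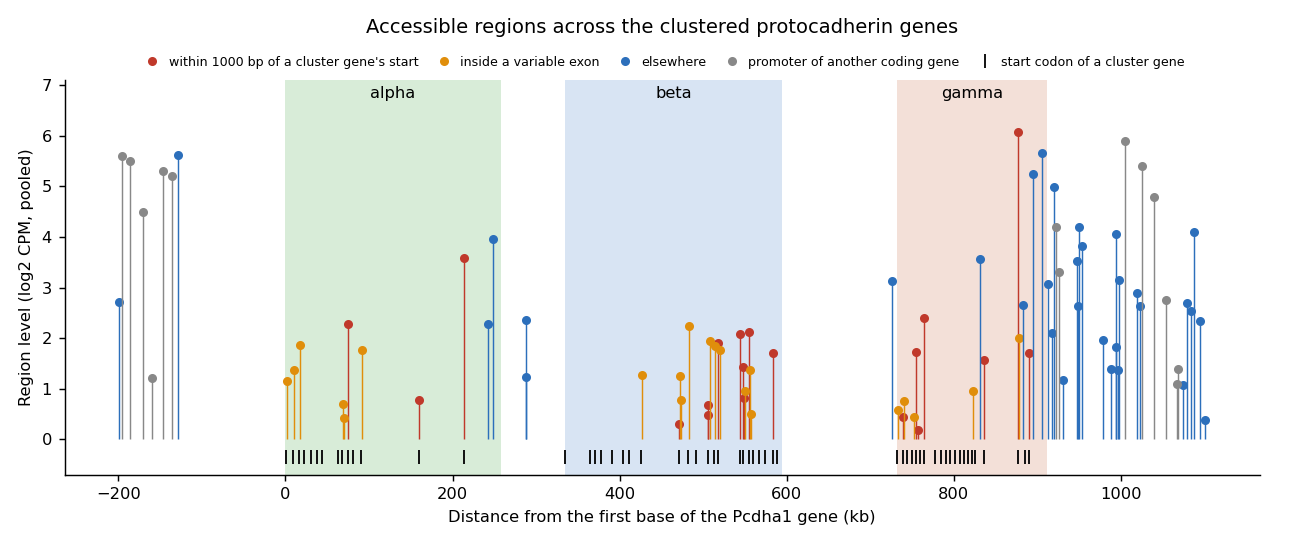
Level of each accessible region (log2 CPM, pooled over all samples) against its distance from the first base of Pcdha1 (kb). Points are coloured by where the region lies, shaded bands mark the 3 clusters and ticks mark the start codons of the 57 genes. The 3 highest regions of the clusters sit at the right end of the gamma cluster, and long stretches of the alpha, beta and gamma clusters hold start codons but no region.

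The accessible promoters were low and narrow. The highest promoter region of the 16 genes had a median level of 1.72 log2 CPM and a median width of 425.5 bp, against 5.03 log2 CPM and 1134 bp at the 14058 protein-coding genes with a region. Levels rose with width, so genes are compared below in log2 CPM per kb of region width. On that scale the median was 3.01 at the 16 genes and 4.75 at all protein-coding genes with a region, and 15 of the 16 lay below the latter. Scaling to width did not remove the dependence on it, since all regions of the list that were 261 to 567 bp wide had a median of 3.11 log2 CPM per kb. Relative to the median level of all regions of similar width (20 bins by width), Pcdhgc3 was 0.54, Pcdhgc5 0.36, Pcdhac1 0.30 and Pcdhga12 0.21 higher on the log2 scale, and the other 12 genes were lower, Pcdhac2 by a difference of -0.30. Across the 16 genes level and width had a Pearson r of 0.935 and a Spearman rho of 0.962. Both measures are read from the same cuts, and over all regions of the list the r was 0.900. Over the same 16 genes the level, not scaled to width, had an r of 0.652 and a rho of 0.659 with the CpG observed over expected ratio of the start, and an r of 0.525 and a rho of 0.377 with its GC content.

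Pcdhgc3 had the highest and widest promoter region. Its promoter region (chr18:37805930-37807719, 1790 bp) covered the start codon and the first part of the variable exon. It also overlapped the exon of the antisense gene BC037039, so the signal at this place cannot be assigned to Pcdhgc3 alone. It had a level of 6.07 log2 CPM, or 5.23 log2 CPM per kb, which placed it at percentile 70.0 of protein-coding promoters per kb and at percentile 98.0 of all regions by level. No other cluster promoter passed percentile 20 on the per-kb scale. The next were the C-type gene Pcdhac2 at 3.61 (chr18:37143370-37144348, 979 bp, 3.58 log2 CPM) and the C-type gene Pcdhgc5 at 3.44 log2 CPM per kb (303 bp, 1.71 log2 CPM). Pcdhac1, the remaining C-type gene with a region, had 3.09 log2 CPM per kb in a region of 202 bp with a level of 0.78 log2 CPM. This order differs from that relative to regions of similar width, where Pcdhac2 fell below the reference. Without replicate values, neither order can be set against an error.

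In the alpha cluster, Pcdha10 was the only gene besides the C-type genes with a promoter region. This record carries the symbol Pcdha11 in GENCODE, as does its downstream neighbour, so the 57 records have 56 symbols. It was called Pcdha10 here because RefSeq names it so. Its region was 812 bp wide and had 2.29 log2 CPM, or 2.59 log2 CPM per kb, which is at percentile 1.21 of protein-coding promoters per kb.

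In the beta cluster, Pcdhb9, Pcdhb12, Pcdhb14, Pcdhb15, Pcdhb16, Pcdhb17 and Pcdhb21 had promoter regions. Beta genes encode the whole protein in a single exon. Their levels ran from 0.31 log2 CPM at Pcdhb9 to 2.11 log2 CPM at Pcdhb17. On the per-kb scale they were close together. Pcdhb17 had 3.05, Pcdhb21 had 3.04, Pcdhb16 had 2.98, Pcdhb12 had 2.96, Pcdhb15 had 2.93, Pcdhb14 had 2.87 and Pcdhb9 had 2.48 log2 CPM per kb. Pcdhb12 and Pcdhb16 each had a second region, 462 and 402 bp after the start codon by its midpoint.

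In the gamma cluster, regions lay at the variable genes Pcdhga2, Pcdhga4, Pcdhga5 and Pcdhga12 besides the C-type genes. Their levels per kb were 2.76 at Pcdhga2, 2.87 at Pcdhga4 and 3.04 at Pcdhga5, and Pcdhga12 had the highest of the 4, with 1.56 log2 CPM in a region of 313 bp. The highest level not scaled to width among them was 2.40 log2 CPM at Pcdhga5. None of the genes of the Pcdhgb type had a promoter region. Pcdhgb8, a polymorphic pseudogene in GENCODE and so not among the 57, had a region of 798 bp at 3.56 log2 CPM (chr18:37761216-37762013), or 3.89 log2 CPM per kb, which exceeds every member promoter but that of Pcdhgc3.

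**Figure D2:**
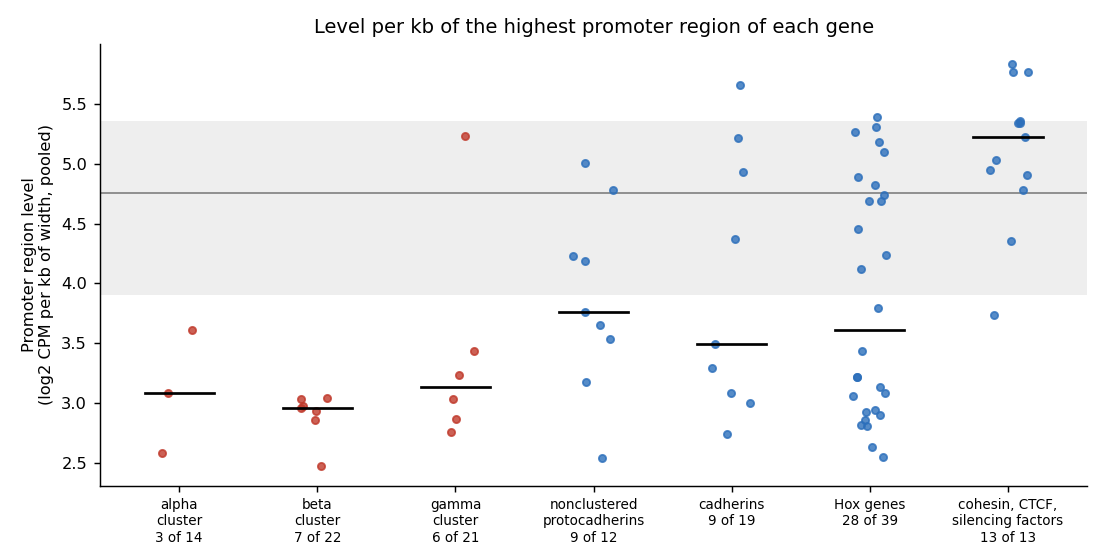
Level of the highest promoter region of each gene (log2 CPM per kb of region width, pooled) in the 3 clusters (red) and in 4 comparison lists (blue). Each point is 1 gene, black bars are medians, the counts give genes with a region of all genes in the list, and the grey line and band are the median (4.75) and quartiles (3.91 and 5.36) of all protein-coding genes with a region. Of the cluster genes, only Pcdhgc3 (5.23) lies above the grey line.

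Related genes outside the clusters had promoter regions more often by count. Of the nonclustered protocadherins, which share the cadherin repeats but are single genes, 9 of 12 had a promoter region, with a median of 3.77 log2 CPM per kb. Of the cadherins, the calcium-dependent adhesion proteins of cell junctions, 9 of 19 did, with a median of 3.49. Hox genes, the homeobox genes of body patterning that also lie in clusters, had a region at 28 of 39 genes and a median of 3.61 log2 CPM per kb. The 16 clustered protocadherins, at 3.01, were below all of these medians. The genes for CTCF, cohesin and silencing factors known to act at the clusters (among them Ctcf, Rad21, Smchd1 and Setdb1) had a region at 13 of 13 promoters, with a median of 5.22 log2 CPM per kb. These regions had a median width of 1506 bp, and 11 of the 13 genes had a CpG-rich start.

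A second set of regions lay inside the variable exons, far from any annotated start. The exon with the start codon was at least 2000 bp long in all 57 genes, and 18 of them held such a region more than 1000 bp from a start. Of other protein-coding genes with an exon of this length, 9.01% did. The 21 regions belonged to 5 alpha, 8 beta and 5 gamma genes. Their midpoints lay 1416 to 2246 bp after the start codon, with a median of 1849 bp and quartiles of 1608 and 1921 bp. They were weak, with levels of 0.42 to 2.25 log2 CPM and a median of 1.26, and 20 of 21 lay below the median of the whole list (2.12 log2 CPM).

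**Figure D3:**
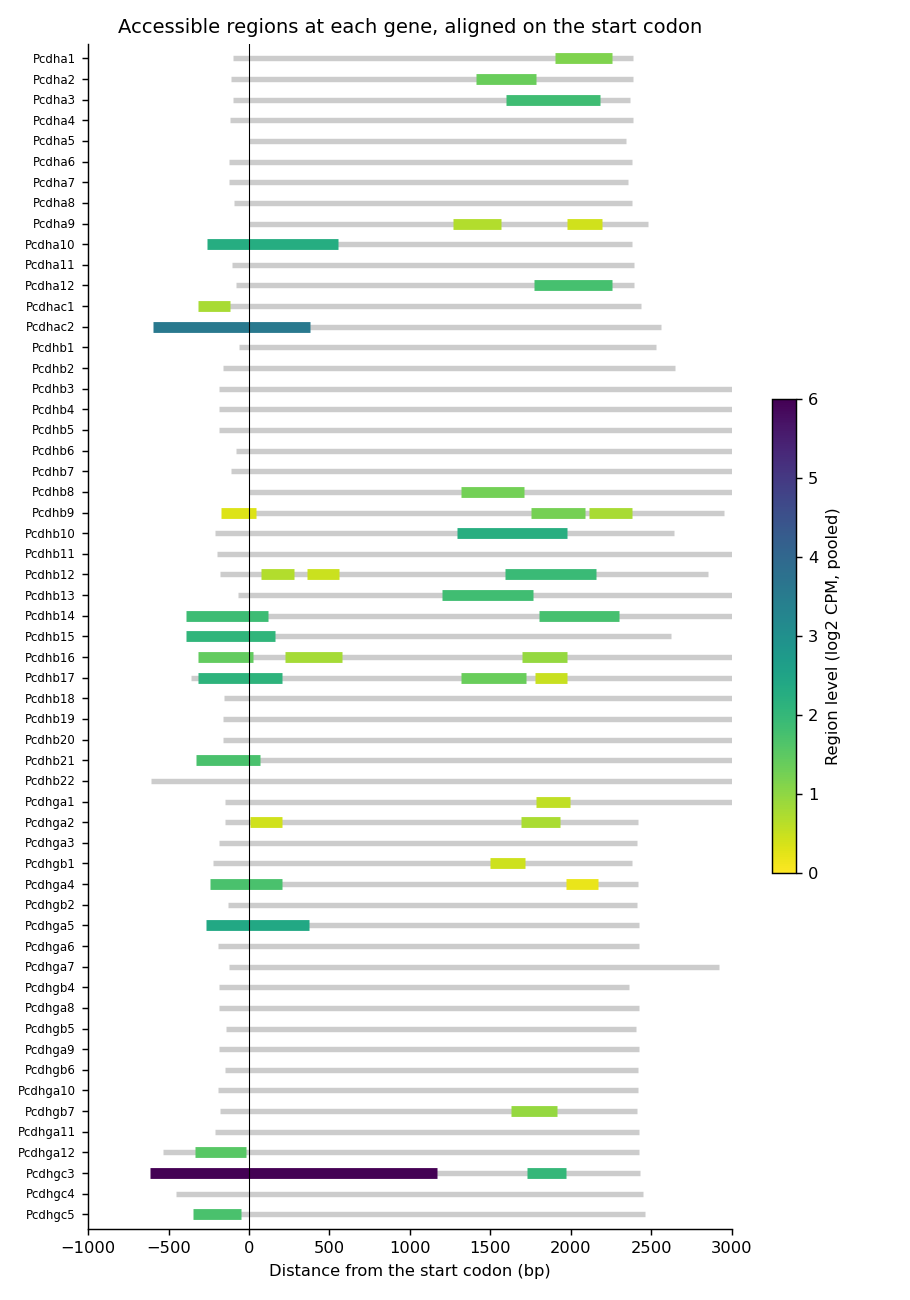
Accessible regions at each of the 57 genes, aligned on the start codon (distance in bp, all genes drawn left to right as transcribed). Grey bars are the exon that holds the start codon, cut off at 3000 bp, and coloured bars are regions with their level (log2 CPM, pooled). Regions gather around the start codon and again between about 1200 and 2400 bp after it, and 30 genes have neither.

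The regions near starts and inside exons were found in different genes as well as together. Both kinds occurred in 7 genes, a promoter region alone in 9, and an exon region alone in 11. In the alpha cluster the exon regions were at Pcdha1, Pcdha2, Pcdha3, Pcdha9 and Pcdha12, none of which had a promoter region. In the beta cluster they were at Pcdhb8, Pcdhb9, Pcdhb10, Pcdhb12, Pcdhb13, Pcdhb14, Pcdhb16 and Pcdhb17. The highest of all 21 was in Pcdhb10 (685 bp, 2.25 log2 CPM). In the gamma cluster they were at Pcdhga1, Pcdhga2, Pcdhgb1, Pcdhgb7 and Pcdhgc3. The exon region of Pcdhgc3 was short (249 bp) but had 2.00 log2 CPM, or 4.00 log2 CPM per kb, the highest of the 21 on that scale, and lay just downstream of the wide promoter region of the same gene. Pcdhga4 had a further region 2068 bp after its start codon (0.19 log2 CPM), which counts as promoter because a second annotated transcript starts nearby.

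Neither kind of region was found at 30 genes. These were Pcdha4 to Pcdha8 and Pcdha11 in the alpha cluster, Pcdhb1 to Pcdhb7, Pcdhb11, Pcdhb18 to Pcdhb20 and Pcdhb22 in the beta cluster, and Pcdhga3, Pcdhgb2, Pcdhga6, Pcdhga7, Pcdhgb4, Pcdhga8, Pcdhgb5, Pcdhga9, Pcdhgb6, Pcdhga10, Pcdhga11 and Pcdhgc4 in the gamma cluster. Many of them are neighbours. A gap of 138.1 kb without any region held the start codons of Pcdhb1 to Pcdhb8, and it was longer than 97.4% of the gaps between regions in the genome. A gap of 58.5 kb in the gamma cluster held 9 start codons, and a gap of 50.8 kb in the alpha cluster held those of Pcdha4 to Pcdha9. Pcdhb8, Pcdhgb7 and Pcdha9, the last gene of each gap, had exon regions at its right end.

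The profile around the start codon had 2 peaks. In bins of 100 bp, a region covered 14 of 57 genes at 100 to 200 bp before the start codon. Coverage fell to 1 of 57, Pcdhgc3, between 600 and 1200 bp after the start codon. It rose again to 15 of 57 genes (26.3%) at 1700 to 1800 bp and at 1900 to 2000 bp, and was 0 of 57 from 2400 bp on. In the 1753 other protein-coding genes with a long start-codon exon, coverage had 1 broad peak of 14.0% before the start codon and was 1.14% at 1700 to 1800 bp.

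**Figure D4:**
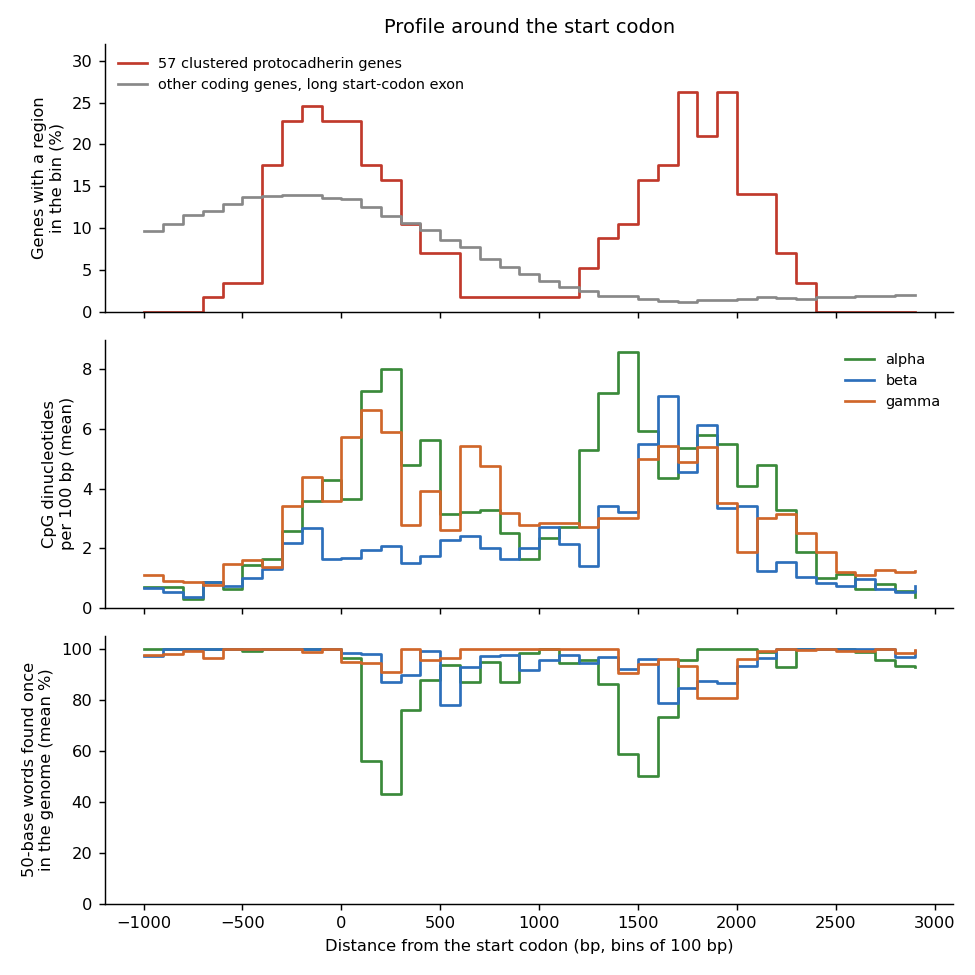
Profile around the start codon in bins of 100 bp (distance in bp). The top panel shows the percent of genes with a region in the bin, for the 57 cluster genes and for 1753 other protein-coding genes with a start-codon exon of at least 2000 bp, and the lower panels show the mean number of CpG dinucleotides per 100 bp and the mean percent of 50-base words found once in the genome, by cluster. The second peak of coverage (26.3%) is in the cluster genes, CpG counts are high near 1400 to 1900 bp, and unique words are fewest in the alpha cluster (43.1% at 200 to 300 bp).

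CpG content also had 2 peaks. Over the 57 genes the mean CpG count rose from 0.53 per 100 bp at 700 to 800 bp before the start codon to 4.98 per 100 bp at 100 to 200 bp after it. It fell to 2.19 at 900 to 1000 bp and rose again to 5.81 at 1600 to 1700 bp. The mean GC content had its maximum, 61.7%, at 1700 to 1800 bp. Beta genes had few CpG dinucleotides after the start codon (1.96 per 100 bp at 100 to 200 bp, against 7.29 in alpha genes) but 7.09 per 100 bp at 1600 to 1700 bp. The part of base composition in the position of the regions was not tested.

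The members share stretches of sequence, and the authors discarded reads of low mapping quality, so the sequence was examined for unique 50-base words. Within 1000 bp of the start codon a mean of 95.6% of words occurred once in the genome, against 92.5% for all protein-coding genes. Every word did at 28 of 57 genes, against 11690 of 21659 protein-coding genes, and the median was 99.0% against 100.0%, so that the mean and the median differ in direction. The means were 90.9% in the alpha, 96.3% in the beta and 97.9% in the gamma cluster, and the lowest value was 78.6% at Pcdha7. Genes with a promoter region had a mean of 97.5% and those without 94.8%. Locally the share was lower. In the alpha cluster it was 56.1% and 43.1% in the bins at 100 to 300 bp after the start codon, and 58.6% and 50.1% at 1400 to 1600 bp. In the beta cluster it was 78.6% at 1600 to 1700 bp. Of the 30 genes with neither kind of region, several had unique words throughout the 1000 bp on either side of the start codon, among them Pcdhb1, Pcdhb18, Pcdhb19, Pcdhb20, Pcdhb22, Pcdhga3, Pcdhgb2, Pcdhga11 and Pcdhgc4, each at 100.0%. Pcdha4 to Pcdha8 and Pcdha11, also among the 30, had 78.6% to 92.3%. All words were unique at 12 of the 16 genes with a promoter region and at 16 of the 41 without. This window ends before the stretch in which the exon regions lay, and the part of shared sequence in the missing regions was not tested.

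The clusters also held 9 regions that were at neither a start nor the inside of a variable exon of the 57 genes. These were the strongest by kind, with a median level of 3.13 log2 CPM and a median of 3.73 log2 CPM per kb, against 2.96 per kb for the 19 promoter regions and 2.76 per kb for the 21 exon regions. Relative to the median of all regions of similar width, the 9 regions were 0.13 higher by median on the log2 scale. The promoter regions were 0.22 lower and 15 of 19 fell below that reference. The exon regions were 0.28 lower and 19 of 21 fell below it.

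**Figure D5:**
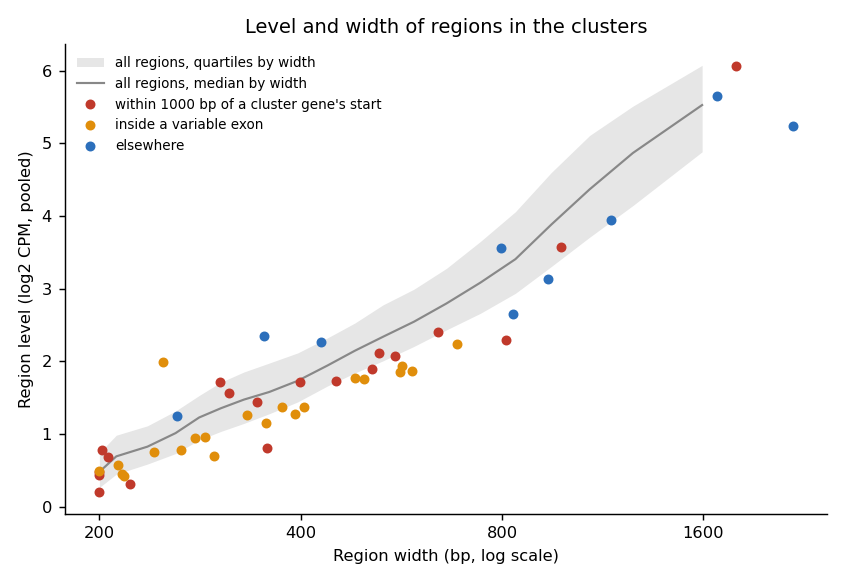
Level (log2 CPM, pooled) against width (bp, log scale) of the 49 regions between the first and last cluster gene, coloured by where they lie. The grey line and band are the median and quartiles of all 94963 regions in 20 bins by width. Of the regions inside variable exons, 19 of 21 lie below the grey line.

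Of these 9 regions, 2 lay among the constant exons of the gamma cluster and were among the highest of the clusters. One (chr18:37823941-37826118, 2178 bp, 5.25 log2 CPM, 4.12 per kb) overlapped a constant exon shared by the gamma genes. The other (chr18:37835318-37836997, 1680 bp, 5.66 log2 CPM, 4.91 per kb) lay in an intron. Together with the Pcdhgc3 promoter they were the 3 highest regions and held 48.1% of the summed CPM of the clusters. A weaker region (chr18:37812847-37813678, 832 bp, 2.65 log2 CPM) lay a short way upstream of the start codon of Pcdhgc4.

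In the alpha cluster 2 regions lay among the constant exons. The higher (chr18:37177897-37179060, 1164 bp, 3.95 log2 CPM, 3.73 per kb) was at the start of the noncoding gene Gm10544. The lower (chr18:37172222-37172650, 429 bp, 2.27 log2 CPM, 3.49 per kb) overlapped an exon of the antisense gene Gm38097. Between the alpha and beta clusters lay only 2 regions in 77.3 kb, at chr18:37217321-37217581 (1.24 log2 CPM) and chr18:37218168-37218520 (2.35 log2 CPM). Enhancers of the alpha cluster are known both among and downstream of the alpha constant exons. Whether these regions are those enhancers was not tested. The remaining region (chr18:37655111-37656046, 936 bp, 3.13 log2 CPM) was at the start of the long noncoding gene 3222401L13Rik before the gamma cluster, and the ninth was that at Pcdhgb8.

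The clusters were not poor in regions by number. Between the first and last cluster gene there were 53.8 regions per Mb, against 34.8 per Mb in the genome and 39.8 per Mb on chromosome 18. They covered 2.80% of the bases, against 2.06% in the genome. The levels were lower, with a median of 1.71 log2 CPM against 2.12, and 36 of 49 regions (73.5%) lay below the list median. Regions of the list that were 261 to 567 bp wide had a similar median of 1.70 log2 CPM. Of these, 29678 of 40882 lay below the list median. The cluster regions were low for their own widths, however. Relative to the median of all regions of similar width their median difference was -0.26 on the log2 scale, and 11 of 49 lay above it. Per kb of width their median was 2.83 log2 CPM, against 3.11 in the regions of 261 to 567 bp. The part of width in the lower levels was not tested. The summed CPM per Mb was 355, against 372 in the genome. This sum was unevenly placed. The gamma constant exons held 27.3% of it, the gamma variable exons 34.9%, the beta cluster 16.2%, the alpha variable exons 10.3% and the alpha constant exons 6.27%. From the Pcdhgc3 promoter region to the end of the gamma cluster lay 52.3%.

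The flanks differed from the clusters in levels. Taking the highest promoter region of each gene, 7 of 8 protein-coding genes upstream had one, at 4.49 to 5.59 log2 CPM, including the histidyl-tRNA synthetase genes Hars and Hars2. The exception was Dnd1, a germ cell gene. A gap of 129.7 kb then led to the exon region of Pcdha1. Downstream, 5 of 5 genes had one, with the highest region of each ranging from 2.75 log2 CPM at Arap3 to 5.90 log2 CPM at Diaph1, which encodes an actin-nucleating formin. The downstream flank had 150 regions per Mb, the densest stretch of the window. The protein-coding genes Slc25a2 and Taf7, which lie between the beta and gamma clusters, had no promoter region, and neither did the 3 read-through genes that span the clusters.

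Short sequence motifs were counted on both strands as a description of the promoters. CTCF is the DNA-binding protein that anchors the known promoter-enhancer loops of the clusters, and its motif was searched as a core of fixed bases with 4 free positions. Within 1000 bp of the start codon 15 of 57 genes (26.3%) held it, against 13.6% of protein-coding genes. The direction turned with the form of the motif, since a shorter core (AGGGGGC or AGGTGGC) was at 22.8% of the cluster genes against 52.9%, and a longer core at 0 of 57 against 7.04%. The longer core is the first core with G or T at its last free position. All matches to the first core at the 15 genes thus had A or C at that position. The first core was found at 11 of 14 alpha genes, 0 of 22 beta genes and 4 of 21 gamma genes. In the alpha genes all 11 matches were on the coding strand, and 7 of them began 104 bp after the start codon, inside the variable exon. Of the 11, those of Pcdha10 and Pcdhac1 lay inside an accessible region. Genes with a promoter region held the core in 4 of 16 cases and those without in 11 of 41.

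Beta genes held the same letters at another place. The core was on the opposite strand between 2100 and 2300 bp after the start codon in 10 of 22 beta genes, 0 alpha and 0 gamma genes, with the matches at 2182 to 2206 bp. The same window held it in 0.399% of the 1753 other protein-coding genes with a long start-codon exon. This window was chosen after the matches were seen. The members share stretches of sequence, so matches at nearly the same place, here and in the alpha genes, are not separate observations. Of the 10 matches, only that of Pcdhb14 lay inside an accessible region.

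The core of the hypoxia response element (ACGTG or GCGTG), to which hypoxia-inducible factors bind, was within 1000 bp of the start codon of 51 of 57 genes (89.5%), against 86.7% of protein-coding genes. In accessible regions it was present in 30 of 49 (61.2%), against 46.2% of all regions and 34.8% of all regions with widths of 261 to 567 bp, the quartiles of the clusters. By kind it was in 7 of 19 promoter regions (36.8%), against 77.2% of the regions at protein-coding promoters in the whole list, whose median width was 953 bp against 356 bp. It was in 16 of 21 exon regions (76.2%), against 39.0% of the other regions of the list. The exon regions had a median GC content of 59.4%, against 49.8% over all regions, and the part of base composition in this count was not tested. The AP-1 motif (TGACTCA) was in 2 of 49 regions (4.08%), against 22.1% of all regions and 19.9% of those of similar width. Both were among the 9 regions elsewhere, so that 0 of 19 promoter regions and 0 of 21 exon regions held it.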

How the data were processed

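ATAC-seq of 11 MPC2 samples was analysed. The authors trimmed reads with Trim Galore, aligned them to mm10 with Bowtie2, removed duplicates (Picard 2.17.8), discarded reads of low mapping quality, called peaks (MACS2 2.2.7.1), merged them over samples, counted cuts with pyDNase and normalised with TMM and edgeR 3.24.3. The deposited value per region was read as average log2 CPM over all samples, inferred from 460 values below 0 and a sum of 1012761 CPM. The authors also removed regions overlapping the ENCODE blacklist and regions with low cut counts. A start without a region in the list therefore need not be closed. Merging widens regions, and averaging lowers those open in few samples.

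Genes came from GENCODE vM21 and sequence from the same assembly (GRCm38). Coordinates are 1-based. Promoter regions lay within 1000 bp of any transcript start. Words of 50 bases were taken every 10 bases and compared exactly with the genome on both strands, and aligned with bwa 0.7.19 (mapping quality of at least 10). Python 3.11.15 was used with numpy 2.4.6, pandas 2.3.3, scipy 1.17.1 and numba 0.67.0. Counting steps were tested on simulated data. Every cluster gene with a promoter region, every other region of the clusters and the flanking genes were eligible to be named. Members and lists were chosen with earlier results of these data known. No cluster sequence is printed here.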

Additional observations from a re-analysis of the deposited data

How the results depend on the processing

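Placing the promoter at starts of protein-coding transcripts, at the upstream end of the gene record or at the start codon, within 500 bp, by region midpoint or after joining regions within 500 bp left 16 genes with a promoter region. The share of all protein-coding genes fell from 64.1% to 59.1% at the upstream end of the gene record and to 46.9% at the start codon, and was 62.1% to 64.1% in the other settings named. Within 2000 bp, a reach that takes in regions inside variable exons, the count was 28, against 67.0% of all protein-coding genes. With regions at least 500 bp wide it was 7, against 56.9%. The window held 87 regions, 49 with no flank, 66 with flanks of 100 kb, 137 with flanks of 500 kb, 36 of at least 500 bp, and 79 after joining. The median level of 1.71 log2 CPM in the clusters became 2.83 per kb of width (3.25 over all regions) and 2.40 in regions of at least 500 bp (3.48 over all regions), below the list in each case. The share of genes with the CTCF core depended on its letters. It was 26.3% (15 genes), 22.8% for the shorter AGGGGGC or AGGTGGC (52.9% of all protein-coding genes), 45.6% for a looser core with 1 more free position (35.3%), added after seeing the data, and 0 for a longer core that joins both fixed parts with G or T at the last free position (7.04%). The position of the members relative to all genes thus changed with the form. Within 500 bp of the start codon it was 24.6% (9.22%), and around the gene start, also added later, 26.3% (14.8%). Unique words made up 95.6%, 93.7% with 36 bases, 98.7% with 100 bases, and 94.9% by alignment. No paired analysis was possible because each region had a single pooled value. Leaving out a sample was likewise not run.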
